A study of Mus musculus with 6 samples.

Results

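Guanylate-binding proteins (GBPs) are large interferon-induced GTPases of the dynamin superfamily. They assemble on the membranes of intracellular microbes and on the vacuoles that hold them, help to break those membranes open, and feed the released ligands to caspase and inflammasome pathways. Their genes are switched on through JAK-STAT signalling after interferon gamma and after type I interferon, the cytokine for which plasmacytoid dendritic cells are best known. The 9 genes described here are the rows of the deposited tables with the symbols Gbp2, Gbp3, Gbp4, Gbp5, Gbp6, Gbp7, Gbp8, Gbp9 and Gbp10. They are 9 of 52550 genes in the tables, and all 9 passed the filter on low values that 15265 genes passed.

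Cells labelled as splenic plasmacytoid dendritic cells from C57BL/6 mice were studied. All 6 libraries came from cells that received R837, also known as imiquimod, which activates TLR7, for 12 hours. In 3 libraries R837 was the sole agent, and in 3 it was combined with taurine, an amino sulfonic acid. The sources used here give no doses, no age or sex of the animals and no word on whether a replicate is a separate animal or culture, so the p-values measure only the spread between these libraries, which may be technical. Unstimulated cells were not analysed here, so every level is one under R837.

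The libraries held between 33585080 and 38392654 reads on genes. All 16 markers listed for plasmacytoid dendritic cells were measured, among them Siglech with a normalized count of 11770 ± 1434 (SD, n = 3) under R837 and 11361 ± 889 with taurine. Of the 16, 7 differed between the groups and are named at the end. Of 11 T cell markers, the receptor genes Cd3d, Cd3g and Trbc1 were listed at 0 in every library and Cd3e, Trac and Trbc2 reached at most 13.5, while Lck ran from 38.7 to 116, Cd4 from 881 to 1294, Cd8b1 from 3908 to 5175, Il7r from 12107 to 20745 and Cd8a from 70729 to 88500. R837 replicate 3 lay nearest to the other group on the leading principal component (-12.8, against -47.6 and -43.8 for the other R837 libraries and 29.6 to 43.5 for the taurine libraries).

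The members lie in 2 clusters. Gbp5 (ENSMUSG00000105504.4, chromosome 3, 142493978 to 142522344), Gbp7 (ENSMUSG00000040253.15, chromosome 3, 142530342 to 142550149), Gbp3 (ENSMUSG00000028268.14, chromosome 3, 142560026 to 142573209) and Gbp2 (ENSMUSG00000028270.12, chromosome 3, 142620602 to 142638008) follow each other on the plus strand of mm10. On the minus strand of chromosome 5 stand Gbp8 (ENSMUSG00000034438.16, 105014150 to 105139540), Gbp9 (ENSMUSG00000029298.15, 105077630 to 105139539), Gbp4 (ENSMUSG00000079363.7, 105115767 to 105139586), Gbp10 (ENSMUSG00000105096.1, 105215699 to 105239533) and Gbp6 (ENSMUSG00000104713.4, 105270702 to 105293698). GENCODE lists all 9 as protein coding, and the reads counted for them are taken as exonic, since the tables give 1 value per gene.

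Interferon acts on GBP promoters through interferon-stimulated response elements (ISRE) and gamma-activated sites (GAS), so those letters were looked up in the promoters. RefSeq windows of 250 bases before to 50 after a start site (GRCm38.p6) were held for Gbp2, Gbp3, Gbp5 and Gbp7, with 2 windows for Gbp3, and not for Gbp4, Gbp6, Gbp8, Gbp9 or Gbp10. The ISRE core GAAANNGAA was searched on both strands and was present in 4 of these 5 windows and in 8.56% of the 32851 windows of all genes. Each of the 4 genes had it, on the minus strand. The sites with 10 bases on either side, plus strand, are shown so that the matches and the bases around them can be compared; capitals mark the core as read on that strand.
Gbp2, -58 to -50: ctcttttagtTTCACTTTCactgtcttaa
Gbp3, -44 to -36: aggacacagtTTCAGTTTCtatttcccag
Gbp5, -164 to -156: cttgtgtagtTTCAATTTCagtttagaga
Gbp7, -52 to -44: tgtgtgcagtTTCAGTTTCagttctccat

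Positions count from the RefSeq start site, which need not be the gene start of the tables. In Gbp3 another match overlaps the site shown, at -38 to -30, and the second Gbp3 window held none. The GAS letters TTCNNNGAA, which read the same on both strands, occurred in 8.30% of all windows and in those of Gbp5 (at -245 to -237 and -52 to -44) and Gbp7 (at -106 to -98 and -87 to -79), but not in those of Gbp2 and Gbp3. The NF-kB letters GGANTTTCC (1.25% of all windows) matched only Gbp5, at -77 to -69, and the AP-1 letters TGANTCA (7.81%) only Gbp2, at -102 to -96. A match of letters is a description and shows no binding. The 250 bases before the Gbp7 start, chr3:142530086-142530335, plus strand, are printed because they hold both kinds of site close together, with the GAS and ISRE letters in capitals.
Gbp7 promoter: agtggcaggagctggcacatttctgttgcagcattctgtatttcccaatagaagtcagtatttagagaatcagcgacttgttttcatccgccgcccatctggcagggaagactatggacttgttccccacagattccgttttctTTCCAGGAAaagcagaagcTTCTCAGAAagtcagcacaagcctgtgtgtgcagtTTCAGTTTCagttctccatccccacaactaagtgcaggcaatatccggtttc

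GBPs differ in how they reach membranes. Members whose last 4 residues start with a cysteine (a CaaX box) receive a prenyl lipid there. The last 15 coding bases of the longest complete GENCODE coding sequence, stop codon included, show which members carry that codon, in capitals.
Gbp2: TGCactatactctga
Gbp5: TGTgttataagctaa
Gbp3: tcactaagtagttag
Gbp7: gttagaaaactctaa
Gbp4: aaggatagactgtga
Gbp6: ctaaagcatttatga
Gbp10: ctaaagcatttatga
Gbp8: catttcaatgattga
Gbp9: cttttaaggaaatga

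Gbp2 and Gbp5 had the cysteine codon, and the other 7 did not. The coding ends of Gbp6 and Gbp10 were the same. All 9 coding sequences, of 1578 (Gbp8) to 1917 (Gbp7) bases, encoded the GTP-binding motif of a glycine, any 4 residues, a glycine, a lysine and a serine or threonine, which started at residue 45 in Gbp2, Gbp5 and Gbp7, 39 in Gbp3 and 43 in the chromosome 5 members.

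Near-identical copies limit what single values mean on chromosome 5. Gbp6 and Gbp10 were identical at 98.4% of 1836 aligned coding bases and shared a run of 421 bases without a difference. Another coding gene, Gm43302, runs from Gbp6 to Gbp10, was 99.9% identical to Gbp6, and covered 29.0% of the exon bases of Gbp6 and 46.3% of those of Gbp10. Of all 100-base stretches in its longest-coding transcript, 82.9% for Gbp6 and 70.9% for Gbp10 also occurred in transcripts of other genes. That share was 10.2% for Gbp7, which holds the pseudogene Gm43802, and at most 3.81% for the other 6 members. The values of Gbp6 and Gbp10 are therefore uncertain, while those of Gbp2, Gbp3 and Gbp5, at most 0.929%, rest almost wholly on sequence of their own.

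With taurine, 4 of the 9 members rose, Gbp2, Gbp3, Gbp5 and Gbp9, and none fell. Of all 15265 genes tested, 6.41% passed the test, 3.75% as higher and 2.66% as lower. The median log2 change of the members was 0.36, against -0.01 over all genes tested. In 5 members every taurine library lay above every R837 library, which held for 14.6% of all genes. Each change is a limma estimate from log2(normalized count + 1), the combined treatment less R837 alone, with p-values adjusted over all genes tested (Benjamini-Hochberg) and 0.05 as the threshold. edgeR on the recovered reads called the same number of members, 4 (3.74% of all genes were higher), and DESeq2 called 5 (7.66% higher), Gbp7 being the additional member at an adjusted p of 0.0134. Under limma, edgeR and DESeq2 alike, 5 members had an unadjusted p under 0.05 as higher and 0 as lower. By limma 3622 of the 15265 genes tested had one in either direction. The 3 tools use the same 6 libraries, so their counts are not independent. limma without its abundance trend called 0 members, with adjusted p from 0.0843 to 0.1004 for the 4. An unadjusted p under 0.05 then held for 5 members and for 3217 of all genes tested. With 1 library left out, 2 members (Gbp2 and Gbp5) were called without R837 replicate 2 or without taurine replicate 3, 3 without R837 replicate 1 or taurine replicate 2, 4 without taurine replicate 1 and 5 without R837 replicate 3, the library nearest to the other group. The genes called among all tested then ran from 130 (without R837 replicate 2) and 155 (without taurine replicate 3) to 1503 (without R837 replicate 3), against 979 with all libraries.

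Gbp2, which coats vacuoles and cytosolic bacteria and takes part in AIM2 inflammasome activation, was the most abundant member. With R837 alone its normalized count was 19365 in replicate 1, 20180 in replicate 2 and 18492 in replicate 3, and the taurine libraries, in the same order, had 29653, 28871 and 31573. The 2 groups stood well apart, with the taurine mean 1.55 times the R837 mean. The log2 change was 0.63 ± 0.06 (SE), with an adjusted p of 0.00370. Its promoter site is the first of those shown above. Exons of Gbp2 share 24 bases with the miRNA gene Mir6381, and their sum had the same change (0.63).

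Gbp5, the other member with a CaaX box and a promoter of NLRP3 and AIM2 inflammasome assembly, changed the most. It had 10822, 9992 and 10254 with R837 alone and 17363, 16956 and 17007 with taurine. Every taurine library exceeded the highest R837 library, and the spread within each group was small (means 10356 ± 424 and 17109 ± 222, SD, n = 3). The log2 change was 0.72 ± 0.06 (SE, adjusted p = 0.00238). Ordered by unadjusted p, Gbp5 ranked 4 and Gbp2 ranked 16 among the 15265 genes tested. Ordered by upward log2 change, Gbp5 ranked 846 and Gbp2 ranked 1090. Leaving out any 1 library kept the calls of Gbp2 and Gbp5.

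Gbp3, a chromosome 3 member without a CaaX box that is also found at parasite vacuoles, had 2885, 2872 and 2369 with R837 and 3999, 4052 and 4555 with taurine. The groups did not overlap, and the ratio of means, 1.55, was the same as that of Gbp2. The log2 change was 0.64 ± 0.10 (SE, adjusted p = 0.0130). The call was lost without R837 replicate 2 (adjusted p = 0.0505) and without taurine replicate 3 (adjusted p = 0.0550).

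Gbp9 was the only chromosome 5 member past the threshold. It had 2712, 2833 and 2790 with R837 and 3576, 3980 and 3902 with taurine, so the lowest taurine library stood above the highest R837 library. The log2 change was 0.46 ± 0.08 (SE, adjusted p = 0.0150), or 1.37-fold. The call was lost without R837 replicate 1 (adjusted p = 0.0561), R837 replicate 2 (0.0658), taurine replicate 2 (0.0605) or taurine replicate 3 (0.0592), while the log2 change stayed between 0.43 and 0.50. Exons of Gbp9 share 1.16% of their bases with Gbp8 and Gbp4.

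Gbp7, which has been tied to NADPH oxidase assembly and autophagy, had 2078, 2019 and 2398 with R837 and 2934, 2791 and 2607 with taurine. The groups did not overlap, and the means were 2165 ± 204 and 2777 ± 164 (SD, n = 3). Its log2 change of 0.36 ± 0.10 (SE) did not pass the threshold (adjusted p = 0.0606). It passed without R837 replicate 3 (0.44, adjusted p = 0.0243) and among genes with a mean of at least 50 (0.0487). With the pseudogene Gm43802 added, the log2 change of the sum was 0.36. The R837 mean was then 2171, so too few counts were added for the sum to alter the estimate. Reads on the shared exon bases may have been given to either gene, dropped or counted more than once, which the sum does not show.

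**Figure D1:**
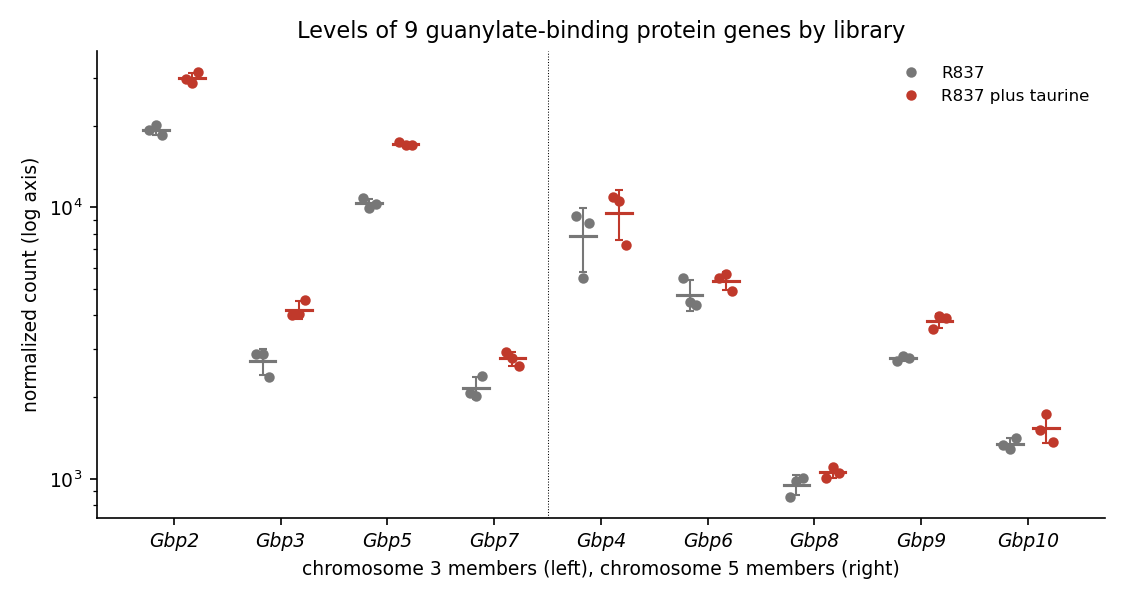
Normalized count of each member in each library (log axis), with R837 in grey and R837 plus taurine in red, the mean as a horizontal line and the SD of 3 libraries as a bar. Gbp2, Gbp3, Gbp5, Gbp7 and Gbp9 show groups that do not overlap, while the groups of Gbp4, Gbp6, Gbp8 and Gbp10 do.

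Gbp4, reported to hold back IRF7 signalling, was the most variable member. It had 9323, 5503 and 8750 with R837 and 10901, 10545 and 7278 with taurine. R837 replicate 2 and taurine replicate 3 were low within their groups, and the groups overlapped. The log2 change was 0.30 (95% interval -0.19 to 0.78, adjusted p = 0.439), and it was 0.06 without R837 replicate 2 and 0.49 without taurine replicate 3. The interval for Gbp4 includes both 0 and a change as large as that of Gbp2.

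The near-identical pair Gbp6 and Gbp10, both linked to control of intracellular bacteria, did not pass. Gbp6 ranged from 4367 to 5473 with R837 and from 4934 to 5700 with taurine (log2 change 0.18, 95% interval -0.06 to 0.41, adjusted p = 0.347). Gbp10 ranged from 1284 to 1414 and from 1366 to 1738 (0.19, interval -0.06 to 0.44, adjusted p = 0.348). Gbp6 had 0.28 without R837 replicate 1, and Gbp10 had 0.10 without taurine replicate 2. Adding the copies together joins reads that were split between them. As the read counter is unknown, shared reads may instead have been dropped or counted more than once, which a sum does not mend. Gbp6 plus Gbp10 went from 6121 ± 596 to 6913 ± 574 (log2 change 0.18, adjusted p = 0.297). With Gm43302 the sum went from 7380 ± 700 to 8700 ± 545 (0.24, adjusted p = 0.135). Gm43302 alone was 1259 ± 120 and 1787 ± 299.7 (0.50, adjusted p = 0.0670).

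Gbp8, the member with the shortest coding sequence and the lowest level, ranged from 860 to 1008 with R837 and from 1007 to 1106 with taurine. Its log2 change was 0.15 (95% interval -0.09 to 0.40, adjusted p = 0.421). It was 0.08 without R837 replicate 1. Gbp4, Gbp8 and Gbp9 share a short stretch of exon, and their sum had a log2 change of 0.32 (adjusted p = 0.201), so the call of Gbp9 was lost in a sum of which Gbp4 is the larger part.

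**Figure D2:**
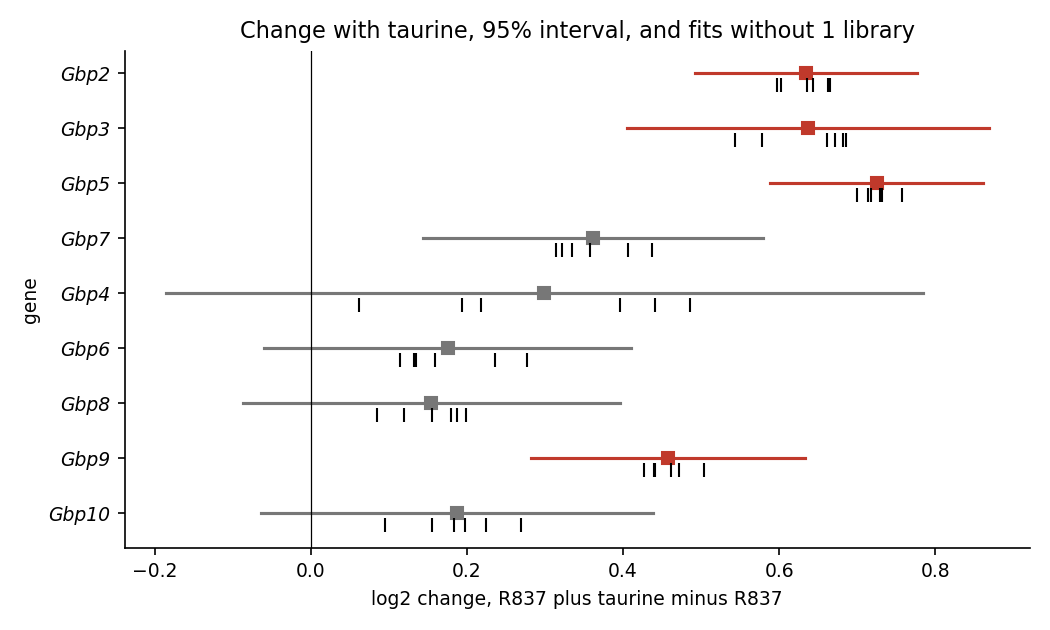
Log2 change with taurine for each member (squares; red where the adjusted p is under 0.05) with its 95% interval from limma (horizontal line), and the estimate after leaving out each of the 6 libraries in turn (black ticks). The intervals of Gbp4, Gbp6, Gbp8 and Gbp10 include 0, and all ticks of all 9 members lie above 0, with Gbp4 reaching down to 0.06.

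The family as a whole took 0.142% to 0.154% of the reads on genes with R837 and 0.203% to 0.209% with taurine. The summed normalized count of the 9 members went from 52282 ± 2381 to 75482 ± 1102 (SD, n = 3), 1.44-fold. A two-sided exact permutation test over libraries gave p = 0.1, which is the smallest value that 3 against 3 allows. The 4 chromosome 3 members together went from 34575 ± 921 to 54120 ± 1543, 1.57-fold. The 5 chromosome 5 members together went from 17707 ± 2368 to 21362 ± 2468, 1.21-fold. The ratio of the chromosome 3 sum to the chromosome 5 sum was 1.78, 2.32 and 1.83 in the R837 libraries and 2.40, 2.28 and 3.01 in the taurine libraries. R837 replicate 2, where Gbp4 was low, lay within the taurine range, so this ratio did not separate the 2 groups. The highest ratio, 3.01, was that of taurine replicate 3, where Gbp4 was also low within its group.

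Levels of different genes were compared as RPKM (reads per exon length and per sequencing depth), with the exon union of GENCODE M21 as length. With R837 alone Gbp2 stood first at 217.5 ± 8.39 (SD, n = 3), and Gbp5 followed at 44.1 ± 1.56. Gbp4 (29.7 ± 7.75), Gbp3 (23.5 ± 2.34) and Gbp6 (22.7 ± 2.66) came next, and their libraries overlapped, so their order is not resolved. Below them lay Gbp9 at 15.2 ± 0.446. Gbp7 (10.9 ± 1.13) and Gbp10 (9.82 ± 0.554) overlapped each other, and Gbp8 was lowest at 7.81 ± 0.724. With taurine Gbp2 reached 326.6 ± 15.0 and Gbp5 70.5 ± 0.952, and the order differed only in Gbp3 (35.2) and Gbp4 (34.96) trading places, again within their spread.

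Gbp2 was the largest part of the family on this scale. It took 55.5% to 59.8% of the summed RPKM with R837 and 58.3% to 62.2% with taurine, which overlap. The shares given here hold for the exon union as length. With the longest transcript, Gbp2 stayed at 217.5 RPKM with R837 while Gbp5 stood at 78.0 and Gbp4 at 49.0. The share of Gbp2 is therefore smaller with that length. The share of Gbp5 was higher in every taurine library (11.6% ± 0.310 against 12.9% ± 0.228). The shares of Gbp6, Gbp7, Gbp8 and Gbp10 were lower in every taurine library, for example 5.94% ± 0.596 against 4.54% ± 0.390 for Gbp6 and 2.05% ± 0.223 against 1.54% ± 0.0845 for Gbp8. Shares sum to 100%, so a lower share is not a lower level.

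**Figure D3:**
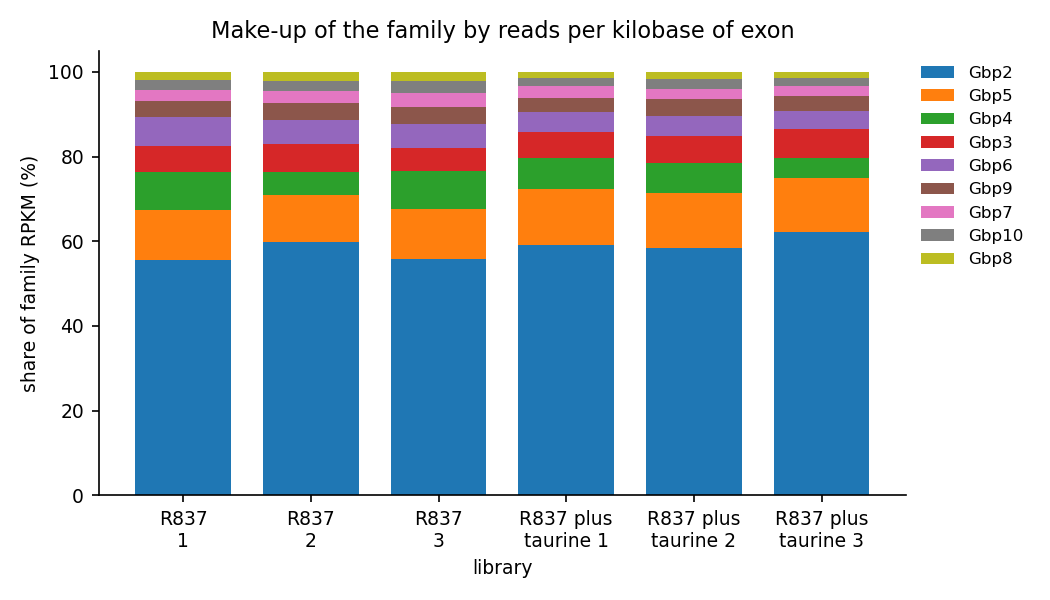
Share of each member in the summed RPKM of the 9 members (y axis, percent) in each library (x axis). Gbp2 takes 55.5% to 62.2% of every bar, and the Gbp5 segment runs from 11.2% to 11.8% with R837 and from 12.7% to 13.2% with taurine.

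The other named genes of the mouse family were barely present. Gbp2b, the mouse counterpart of human GBP1, had 4, 23 and 48 reads in the R837 libraries, against 28, 20 and 32. Gbp11, which GENCODE lists as a polymorphic pseudogene, had 37, 55 and 52 reads against 51, 46 and 35. Neither passed the test (adjusted p = 0.697 and 0.915), and at these counts their log2 changes of 0.62 and -0.08 cannot be resolved from 0 (95% intervals -1.24 to 2.48 and -0.84 to 0.68). The Gbp2b estimate rests on the 4 reads of R837 replicate 1.

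Members varied together across the 6 libraries to different degrees. Pearson's r between 2 members ran from 0.0083 to 0.978 over the 36 pairs, with a median of 0.652, a description that includes the group difference. Candidates for a similar pattern were 9654 genes outside the 9 members with a mean count of at least 100. Genes with a predicted or clone name as symbol were left out. Those whose log2 values followed the members' mean most closely were Nme2 (r = 0.999), Sh3bp2 (0.996), Oasl1 (0.996), Atp5a1 (0.992) and Cltb (0.991). Each r is over 6 libraries that share the same size factors. Oasl1, an interferon-induced OAS-like protein, went from 11018 ± 889 to 17772 ± 892 (log2 change 0.69, adjusted p = 0.00443). Nme2 shares 48.9% of its exon bases with Gm20390, so its value (2444 ± 76.5 to 3257 ± 140, log2 change 0.41) is uncertain.

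Receptors and factors that induce GBPs were examined next. Of 22 genes of interferon receptors and their signalling, 3 were higher and 1 lower, with a median log2 change of 0.04. Beside the counts here and in the lists and markers below, limma called 3.75% of all genes tested higher and 2.66% lower. Irf7, the factor behind interferon alpha expression, rose by 0.65 (adjusted p = 0.00296), Usp18, a brake on interferon receptor signalling, by 0.50 (0.0112), and Irf2, an IRF family factor that competes with IRF1, by 0.52 (0.0140). Ifnar1, a subunit of the type I interferon receptor, fell by 0.33 on the log2 scale (26819 ± 1336 to 21312 ± 467, adjusted p = 0.0188). Stat2 (0.05, adjusted p = 0.672), Irf9 (-0.09, 0.436) and Irf1 (0.28, 0.0746) did not pass. Ifnar1 and these 3 factors were singled out after their values were seen.

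The ligands were scarce. None of the 7 interferon genes past the filter, of 16 listed, passed the test by limma, and 0 of them had an unadjusted p under 0.05. edgeR and DESeq2 also called 0, with 1 gene at an unadjusted p under 0.05 in each, and DESeq2 gave an adjusted p to 1 of the 7. Ifng, the classical inducer of GBPs, had 31.0 ± 27.8 with R837 and 39.2 ± 16.1 with taurine (adjusted p = 0.592). Ifna5, Ifna2 and Ifna6, near-identical copies of interferon alpha whose single values are uncertain, showed estimates of 1.30 (adjusted p = 0.246), 1.37 (0.309) and 1.88 (0.347). The list median was 1.30. Normalized counts of these 3 genes lay between 0 (Ifna6 in R837 replicate 2) and 46.7 (Ifna2 in taurine replicate 3). Ifnb1, looked up after its value was seen, had 91.0 ± 7.47 with R837 and 119 ± 34.1 with taurine (log2 change 0.35, adjusted p = 0.475). The 16 listed genes summed to 147 to 213 normalized counts with R837 and 275 to 316 with taurine. That sum was not tested.

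Immunity-related GTPases act with GBPs at vacuoles. Of 13 listed, 3 were higher and 0 lower by limma and by edgeR, and 5 higher and 1 lower by DESeq2, with a median log2 change of 0.17. Gm12250 (Irgb10), which works downstream of GBPs on bacterial membranes, went from 1298 ± 47.1 to 1921 ± 170 (log2 change 0.56, adjusted p = 0.0157). Igtp (Irgm3) rose by 0.54 (adjusted p = 0.0225) and Irgm2 by 0.37 (0.0464), and the exons of these regulatory members overlap each other by 8.01% and 4.39%. Iigp1, looked at after its value was seen, had 0.61 (adjusted p = 0.0564).

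Of 14 inflammasome genes measured, 2 were higher and 0 lower, with a median of 0.22. Gsdmd, the pore-forming protein that GBP-dependent caspase activation cuts, went from 2276 ± 155 to 3369 ± 229 (log2 change 0.57, adjusted p = 0.0129). Zbp1, a nucleic acid sensor, had 0.31 and lay at the threshold (adjusted p = 0.04997, called), while Casp4 (caspase-11), the intracellular lipopolysaccharide receptor, had 0.40 without passing (adjusted p = 0.0725).

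Of 16 listed autophagy and ubiquitin-like genes, 4 were higher and 0 lower (median 0.11). The 4 were Isg15 (0.61, adjusted p = 0.00370), the autophagy receptor Sqstm1 (0.39, 0.00748), the ISG15-conjugating enzyme Ube2l6 (0.47, 0.0121) and the ATG8 protein Gabarap (0.37, 0.0196). The ATG genes of the list, looked up after their values were seen, did not pass. Their log2 changes were 0.15 (Atg3), 0.03 (Atg5), -0.08 (Atg7), 0.07 (Atg16l1) and -0.35 (Atg12, adjusted p = 0.116). Exons of Sqstm1 overlap Mrnip on the other strand by 17.3%, so its value is less certain.

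Among 16 other GTPases of the dynamin superfamily, 3 were higher and 0 lower, with a median of 0.06. Beside the immunity-related GTPases, DESeq2 called more genes higher in the interferon receptor and signalling list (6), the inflammasome (3), autophagy (5) and these GTPases (5), while edgeR gave limma's counts in all 6 lists but the inflammasome (1 higher). Over all genes with an adjusted p, DESeq2 also called more higher, 7.66% against 3.75% by limma and 3.74% by edgeR. The 0 lower calls of limma stood beside 1 gene each with an unadjusted p under 0.05 as lower in the immunity-related GTPases, autophagy and these GTPases and 2 in the inflammasome. Without R837 replicate 3 the medians of the 6 lists were 0.02 (receptors and signalling), 1.09 (ligands), 0.12 (immunity-related GTPases), 0.22 (inflammasome), 0.08 (autophagy) and 0.11 (other GTPases). The antiviral genes Mx1 (0.55, adjusted p = 0.00286) and Mx2 (0.54, 0.00509) and the endocytic Ehd4 (0.45, 0.0182) rose. The atlastins Atl1, Atl2 and Atl3, the closest relatives of GBPs in structure, did not pass (-0.48, 0.03 and 0.22, looked up after their values were seen).

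**Figure D4:**
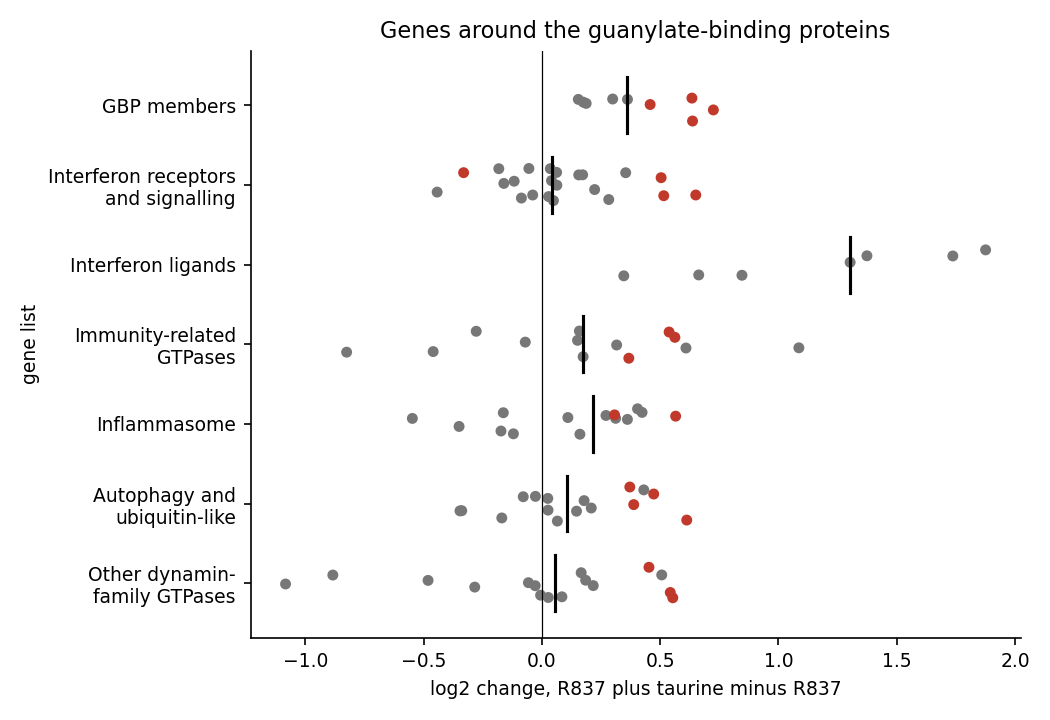
Log2 change with taurine (x axis) of each tested gene in the GBP family and in 6 lists of genes around it (y axis), red where the adjusted p is under 0.05, with the list median as a vertical black line. The GBP members lie above 0 as a group with a median of 0.36, and the interferon ligands spread widely at low counts.

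Some other measures moved with the groups. Across genes, Spearman's rho between exon length and how far a library lay from each gene's mean ran from 0.044 to 0.147 with R837 and from -0.203 to -0.1 with taurine. A smooth trend on exon length and GC content was then removed from each library, a step chosen after seeing the data. The members' log2 changes ran from 0.23 (Gbp8) to 0.82 (Gbp5), and 5 were called, Gbp7 (0.46, adjusted p = 0.0156) included. Of all 15265 genes tested, 949 were called in this setting, 295 of them lower.

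Macrophages and other spleen cells also express GBPs, and in bulk RNA fewer cells of a type and less RNA per cell cannot be told apart. The 12 monocyte and macrophage markers summed to 17092 to 18099 normalized counts with R837 and 17346 to 21097 with taurine, and of 11 tested limma called 1 higher (Fcgr1, log2 change 0.86) and 0 lower, edgeR also 1 and 0, and DESeq2 3 higher and 2 lower. At an unadjusted p under 0.05, limma had 3 higher and 3 lower. Neutrophil markers summed to 1172 to 1707 and 1717 to 2088 (of 7 tested, Ngp higher by limma, and 1 higher by edgeR and by DESeq2), and erythroid markers to 85.9 to 126 and 162 to 239 (of 4 tested, Hba-a1 higher by limma, 1 higher by edgeR, and 1 by DESeq2, which gave 1 of them an adjusted p). B cell markers summed to 1577 to 2676 and 1731 to 2472 (0 of 7 tested passed by limma or edgeR, 1 lower by DESeq2, and 1 had an unadjusted p under 0.05). NK cell markers summed to 2801 to 3564 and 2801 to 3329 (0 of 3 by limma, edgeR or DESeq2, 1 with an unadjusted p under 0.05 by limma), with Gzma and Prf1 listed at 0 throughout. Pax5 (863 to 1862) made up most of the B cell sum, and Klrk1 (2655 to 3428) most of the NK cell sum. Conventional dendritic cell markers summed to 22996 to 24040 and 19852 to 20639 (of 8, Clec9a lower by limma, and 2 lower by edgeR and by DESeq2). The T cell list summed to 108256 to 111058 and 91041 to 94339 (of 5 tested, Cd8a lower by limma, 1 lower by edgeR and 2 by DESeq2), of which Cd8a made up most. Of 16 plasmacytoid dendritic cell markers, Bst2, Cox6a2 and Il3ra were higher and Tcf4, Runx2, Klk1 and Pacsin1 lower by limma. edgeR gave the same counts, 3 and 4, and DESeq2 called 3 higher and 7 lower. The part of these genes in the GBP changes was not tested. Beyond the fit with length and GC trends removed, given above, the part of the length trend was not tested either.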

How the data were processed

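Messenger RNA libraries of 6 samples were sequenced on an Illumina HiSeq system. Per the labels' protocols, RNA was taken up in Trizol and libraries were built with the VAHTS mRNA-seq v2 kit. Per the file headers, the authors deposited normalized counts, a signal on a linear scale, in 1 table per library. All values (100% to within 0.001 of a read) were whole multiples of 1 step per library, from 0.943 to 1.06, so whole reads were recovered. HISAT2, StringTie, mm8 and mm10 stand in the submitters' processing notes without role or version; the sources used here name no read counter, strand setting or normalizing tool. Of 52403 gene identifiers matched to GENCODE M21, 95.2% had the same coordinates, which are read here as mm10. As the strand setting is unknown, overlapping and antisense genes cannot be told apart.

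Groups came from the sample titles. Genes that reached 10 normalized counts in 3 or more libraries were tested with limma 3.58.1 in R 4.3.3 on log2(normalized count + 1), which understates changes of low genes, with an abundance trend in the prior variance and Benjamini-Hochberg adjustment. Alternatives were other pseudocounts, filters and scalings, edgeR 4.0.16 and DESeq2 1.42.0 on recovered reads, a replicate block and leaving out each library. Removal of length and GC trends was chosen after seeing the data. The code was tested on simulated data. Replicate libraries differed by more than sampling noise (chi-square per degree of freedom of at least 20.3). RPKM were computed from the recovered reads. Promoters came from RefSeq (GRCm38.p6), and coding sequences from GENCODE M21.

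The members and the gene lists were chosen with earlier results of these data known. Named were all 9 members, Gbp2b, Gbp11, overlapping genes, up to 3 genes of smallest p per pathway list, and the 5 candidates most like the members' mean. Ifng, Ifnb1, Gabarap, the ATG genes and the marker genes named were added after their values were seen. In the lists, Ifgga3 was read as Gm4841 by its RefSeq synonym, and Pyhin1 was not matched. The list of prenylation genes is not reported here.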

Additional observations from a re-analysis of the deposited data

How the results depend on the processing

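The direction of the change was the same, upward, for all 9 members in every alternative run (171 values, of which 0 reversed). Other filters, the fit without the trend and the replicate block leave the log2 estimate itself unchanged, so their values could not reverse. Sums of copies count once for each member in them, and all alternatives reuse the same 6 libraries. The summed level ran from 1.40-fold to 1.48-fold. The 4 calls fell to 3 without R837 replicate 1 or taurine replicate 2 and to 2 without R837 replicate 2 or taurine replicate 3, and the range with 1 library left out was 2 to 5. limma without the abundance trend called 0 of the 9 members and 4 genes in all, while 5 members and 3217 genes had an unadjusted p under 0.05, and the adjusted p of Gbp2, Gbp3, Gbp5 and Gbp9 then lay between 0.0843 and 0.1004. The number of genes called, 979, was 547 with no filter (more genes tested), 1808 with DESeq2 and 615 with the replicate block, and ran from 130 (without R837 replicate 2) to 1503 (without R837 replicate 3) with 1 library left out, with 326 without R837 replicate 1 and 340, 253 and 155 without taurine replicates 1, 2 and 3. The cause was not tested. Scaling without the 50 most abundant genes lowered the share of higher genes among those called from 58.5% to 44.1%, while the median of the members was 0.33 and the median of all genes -0.05. Same-numbered replicates did not deviate together (r from -0.043 to -0.003 over genes, and no library correlated best with its own number), so the numbers are not taken as pairs; with the replicate block the 4 members Gbp2, Gbp3, Gbp5 and Gbp9 were called, with adjusted p from 0.0186 (Gbp5) to 0.0416 (Gbp3). With the longest transcript as length, Gbp3, Gbp4, Gbp5, Gbp6 and Gbp10 stood higher (28.5, 49.0, 78.0, 31.8 and 10.8 RPKM with R837), and Gbp6 came before Gbp3. Each member had at least 911 reads in every library, so the 3 libraries per group limit the precision more than counting does.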

Other observations

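The nearest protein-coding genes outside the clusters were looked up after the data were seen, 3 on each side of each cluster, among genes past the filter. Of these 12, Pdlim5, an actin-associated adaptor 98.3 kb before the chromosome 3 cluster, rose from 2057 ± 125 to 2670 ± 175 (log2 change 0.38, adjusted p = 0.0448). Of all genes tested 6.41% passed, 3.75% as higher, so 1 call among 12 is not read as a regional change. The other 11 did not pass: Kyat3, 63 kb after the chromosome 3 cluster, had 36.5 ± 6.27 and 44.8 ± 4.14 (log2 change 0.30, adjusted p = 0.634), and Lrrc8b, 122 kb after the chromosome 5 cluster, had 295 ± 52.5 and 325 ± 21.4 (0.15, adjusted p = 0.633). The ratio of Gbp6 to Gbp10 reads, which near-identical sequence could blur, was 4.10, 3.496 and 3.09 in the R837 libraries and 3.64, 3.28 and 3.61 in the taurine libraries. The ratio of the 2 CaaX members, Gbp2 to Gbp5, was 1.79, 2.02 and 1.80 with R837 and 1.71, 1.70 and 1.86 with taurine, with overlapping groups.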
